A study of Mus musculus with 11 samples.

Results

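The lamin B1 map of proliferating mouse oligodendrocyte precursor cells (OPC), the cells from which myelinating oligodendrocytes (OL) develop, was read from 3 DamID-seq libraries. It gave 3 scores for each of 21534 regions, which are all the regions of the deposited table. A region was called lamina-associated when all 3 scores were above 0 and non-associated when all 3 were below 0. By this rule 5610 regions were lamina-associated (26.1%), 15517 were non-associated (72.1%) and 407 had scores of mixed sign (1.89%).

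The nuclear lamina is a meshwork of lamin filaments on the inner face of the nuclear envelope. Long stretches of the genome that touch it are called lamina-associated domains. They are known to be rich in A and T, poor in genes and mostly low in transcription, and the genes they hold are often ones that the cell type does not use. In DamID the bacterial enzyme Dam, fused to a lamin, methylates adenine in GATC where chromatin comes near the lamina, and unfused Dam reports on how easily each site is reached.

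The cells were wild type (WT in every title) and came from the cortex of C57BL/6 mice at postnatal day 7. They were transduced for 1 day with lentiviral vectors for Dam-LMNB1 or for untethered Dam, then grown for 72 h in OPC proliferation medium (PF) or, for the OL group, in differentiating medium (T3). The OPC groups were 3 Dam-LMNB1 libraries, numbered 8, 9 and 10, and 2 Dam libraries, and the OL groups were 3 libraries of each kind. Every cell group thus carried a viral transgene, the signal is that of added LMNB1 rather than of the cell's own protein, and the identity of the cells cannot be checked by marker levels because the assay reads DNA.

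Each score sets 1 Dam-LMNB1 library against the pooled Dam libraries of the same condition, so a value above 0 is read as more methylation by Dam-LMNB1 than by Dam. The log base is not stated, and differences are given in score units. All 3 OPC scores share 1 pooled Dam denominator, so their spread leaves out the variation between Dam libraries. A region holds a gene with its flanks: on both strands the start of the gene lay 10000 bp inside the region's edge in 70.4% to 70.6% of the matched regions, and the end of the gene 2000 bp inside the other edge in 85.7% to 86.0%. Exons, introns and untranslated parts therefore share 1 value, and overlapping regions share bases.

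The promoters of 5 genes are given as examples from the 2 sides of the map. Olfr802, an olfactory receptor gene, had the highest score of all regions, and Skint5, of a family of immunoglobulin-like genes of skin and thymus, the highest among regions of 500 kb and over. Grm7 encodes a metabotropic glutamate receptor and was lamina-associated with a promoter rich in C and G. Ptprz1, a receptor phosphatase gene known for its use in OPC, and Fyttd1, whose protein takes part in mRNA export, were far below 0. Each line gives the 250 bases upstream of the annotated start, 5′ to 3′ on the gene's strand, from RefSeq (GRCm38.p6, the mm10 build), with every CpG (CG) in capitals.
Olfr802: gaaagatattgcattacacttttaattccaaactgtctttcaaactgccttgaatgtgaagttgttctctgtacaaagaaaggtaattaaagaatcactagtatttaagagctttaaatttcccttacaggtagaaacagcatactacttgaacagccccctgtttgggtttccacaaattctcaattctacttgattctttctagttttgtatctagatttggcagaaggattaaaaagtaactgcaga
Skint5: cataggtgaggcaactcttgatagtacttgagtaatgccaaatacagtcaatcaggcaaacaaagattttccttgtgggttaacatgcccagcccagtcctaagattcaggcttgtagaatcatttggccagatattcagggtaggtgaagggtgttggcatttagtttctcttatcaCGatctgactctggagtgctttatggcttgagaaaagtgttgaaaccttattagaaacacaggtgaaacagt
Grm7: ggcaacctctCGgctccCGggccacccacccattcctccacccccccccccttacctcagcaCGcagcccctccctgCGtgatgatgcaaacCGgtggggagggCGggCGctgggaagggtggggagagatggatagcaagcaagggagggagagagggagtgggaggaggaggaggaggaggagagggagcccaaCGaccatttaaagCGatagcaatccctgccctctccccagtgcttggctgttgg
Ptprz1: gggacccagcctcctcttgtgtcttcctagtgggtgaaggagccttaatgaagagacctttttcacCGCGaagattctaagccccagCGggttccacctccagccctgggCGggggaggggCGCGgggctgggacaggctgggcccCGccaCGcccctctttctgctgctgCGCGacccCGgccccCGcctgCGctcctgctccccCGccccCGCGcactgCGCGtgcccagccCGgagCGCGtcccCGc
Fyttd1: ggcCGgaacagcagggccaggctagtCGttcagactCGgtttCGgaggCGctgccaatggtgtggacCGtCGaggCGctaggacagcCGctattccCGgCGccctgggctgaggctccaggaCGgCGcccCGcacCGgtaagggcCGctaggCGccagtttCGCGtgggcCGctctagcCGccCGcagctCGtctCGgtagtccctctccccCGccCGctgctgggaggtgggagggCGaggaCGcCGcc
These windows lie at chr10:129682738-129682987 on the minus strand for Olfr802, chr4:113999504-113999753 on the minus strand for Skint5, and on the plus strand at chr6:110645348-110645597 for Grm7, chr6:22875252-22875501 for Ptprz1 and chr16:32877534-32877783 for Fyttd1. They hold 0 CpG in Olfr802, 1 in Skint5, 9 in Grm7, 22 in Ptprz1 and 29 in Fyttd1, with a GC content of 33.6%, 41.6%, 65.2%, 71.6% and 72.0%.

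Among microRNA genes, whose products silence target mRNAs through the seed at bases 2 to 8, Mirlet7d, in the let-7 cluster on chromosome 13, had the lowest mean score and Mir6411 on chromosome 10 the highest. The 3 let-7 microRNAs share 1 seed. Mir219a-1, Mir219a-2 and Mir338 make microRNAs known for promoting oligodendrocyte differentiation. The mature sequences from RefSeq are given 5′ to 3′ with the seed in capitals.
let-7d-5p: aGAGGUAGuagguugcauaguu
let-7f-5p: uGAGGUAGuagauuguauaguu
let-7a-5p: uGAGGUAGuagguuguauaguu
miR-6411: uAGCAUGUguaguacauaaug
miR-219a-5p: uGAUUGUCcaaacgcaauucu
miR-338-3p: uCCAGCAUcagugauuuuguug
In libraries 8, 9 and 10 Mirlet7d scored -3.92, -3.76 and -3.12, Mirlet7f-1 -3.33, -3.31 and -2.71, and Mirlet7a-1 -3.25, -3.22 and -2.64. All 3 let-7 regions were least negative in library 10, and they overlap each other, so they are not independent. Mir6411 had a mean score of 2.91 ± 0.10 (SD, n = 3), above 0 in each library. The region of Mir219a-1 had a mean score of -1.60 ± 0.08 (SD, n = 3), that of Mir219a-2 -2.19 ± 0.18 and that of Mir338 -2.02 ± 0.17, so all 3 were non-associated in OPC. So were 73.4% of 1000 microRNA genes.

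Over all regions the scores had a tall peak well below 0 and a low, broad one above it. By the mean score of the 3 libraries, the fullest bin of 0.25 score units, from -2.25 to -2, held 12.6% of the regions. The fullest bin above 0, from 1.75 to 2, held 2.93%, and the emptiest bin between them, from 0.75 to 1, held 2.25%. The median score was 1.44 in the lamina-associated, -1.94 in the non-associated and -0.00 in the mixed regions. The share of regions above 0 was 27.3% in library 8 and 26.8% in libraries 9 and 10 (27.0 ± 0.266%). Between 2 libraries the sign differed in 1.23% to 1.30% of the regions. Of the mixed regions, 106 were above 0 in library 8 alone, against 52 in library 9 alone and 50 in library 10 alone.

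**Figure D1:**
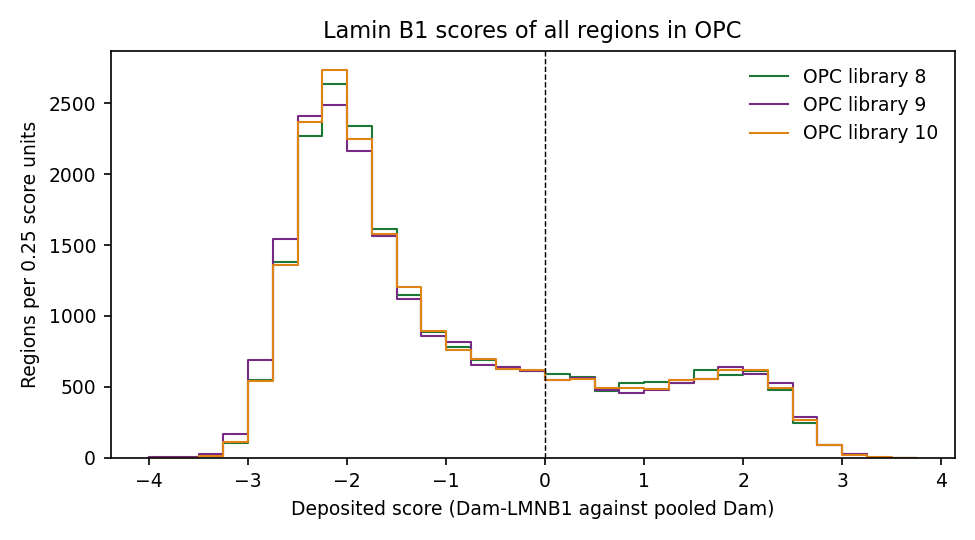
Number of regions per 0.25 score units (y axis) against the deposited score (x axis) for OPC libraries 8, 9 and 10, with a dashed line at 0. The 3 lines lie close together, with the fullest bin from -2.25 to -2 and a second, lower rise above 0. The fullest bin of that rise is from 1.5 to 1.75 in library 8, 1.75 to 2 in library 9 and 2 to 2.25 in library 10.

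By limma's test of the OPC mean against 0 (two-sided, Benjamini-Hochberg adjusted p under 0.05), 5493 regions (25.5%) were above 0 and 15382 (71.4%) below, together 96.9% of the 21534. The test uses the same scores as the class, so it adds no separate support. No label ties a library to its own culture or animal, and the p-values therefore reflect only how far these libraries differ, which may be technical. It left 126 lamina-associated and 143 non-associated regions uncalled. Just inside the lamina-associated class were Cyp2j6 with scores of 0.08, 0.06 and 0.00018 and Lix1 with 0.00099, 0.09 and 0.02. Just outside it were Gsta1 with 0.13, -0.00019 and 0.16 and Rbbp8 with 0.0038, -0.00039 and 0.04. Just inside the non-associated class was Tgm4 with -0.13, -0.00027 and -0.01, and just outside it Zfp641 with 0.0014, -0.19 and -0.23.

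The regions with the largest spread between libraries are given next. Mir3473c scored 0.32, -1.03 and -0.92 in libraries 8, 9 and 10, so that only library 8 was above 0. Cct6a, a chaperonin subunit gene, scored -3.42, -2.17 and -3.35, and Ahnak2 -2.01, -0.67 and -1.78, so that library 9 stood above the other 2 for both. A pair of overlapping tRNA regions on chromosome 1, for Asp and Gly, ran from -0.21 to -1.57 and from -0.30 to -1.64. Spread shrank with region width: the median SD over libraries was 0.129 in regions under 15 kb and 0.0229 in those of 500 kb and over.

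The share of lamina-associated regions differed between chromosomes far beyond the spread between libraries. On chromosome 11 only 12.5 ± 0.225% of 1681 regions were above 0, on chromosome 15 15.7 ± 0.639% of 782 and on chromosome 4 17.7 ± 0.415% of 1237. At the other end were chromosome 6 with 37.5 ± 0.879% of 1188 regions, X with 47.3 ± 0.314% of 842 and Y with 72.8 ± 4.28% of 27. Taken within each library, the X share exceeded the autosomal share by 21.2, 21.1 and 21.2 percentage points. No p is given for such differences, since 3 libraries are too few for an exact test of them to pass 0.05.

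In the order of shares, some neighbours did not differ beyond their spread between libraries, and the sign of the difference was not the same in all 3. Chromosomes 8 and 19 differed by 0.0985 ± 0.359 points, 12 and 14 by 0.629 ± 0.949, 10 and 18 by 0.685 ± 0.701, and 3 and 13 by -0.114 ± 0.292. Chromosome 16 was below 18 in each library, by a mean difference of -0.880 ± 0.841. Chromosomes 15 and 11, by contrast, differed by 3.64, 3.41 and 2.72 points in the 3 libraries, with chromosome 11 the lower in each.

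The order changed when sensory receptor genes, which stand in large clusters, were left out. These were the 1535 regions of olfactory, vomeronasal, bitter taste, trace amine, formyl peptide and Mas-related receptors, and 1477 of them (96.2%) were lamina-associated with a median score of 2.08, against 26.1% of all regions. The lamina-associated share was 33.9% with and 16.95% without them on chromosome 7, 31.5% and 19.0% on chromosome 2, 26.7% and 17.4% on chromosome 9, and 19.9% and 12.2% on chromosome 19. On X, which holds few of them, it was 44.8% with and 44.3% without them, and the excess of X over the autosomes in the share above 0 was then 26.3 ± 0.0655 points. Over the 19 autosomes the share lamina-associated and the number of regions per Mb had a Pearson r of -0.19 (Spearman rho -0.16) with all regions and of -0.81 (rho -0.78) without sensory receptors. Chromosomes share the libraries, so this is a description.

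**Figure D2:**
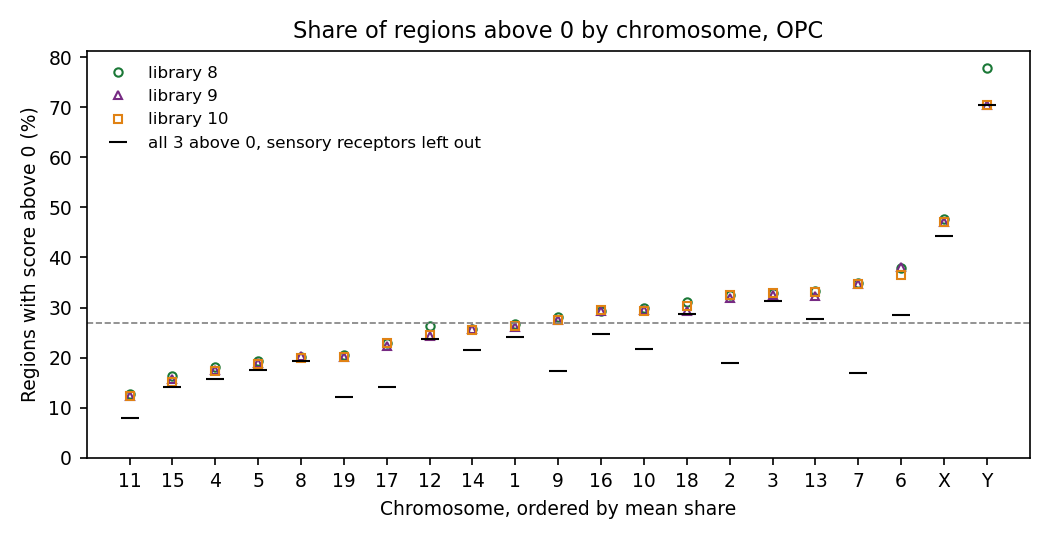
Share of regions with a score above 0 (y axis, percent) on each chromosome (x axis, ordered by the mean share) in OPC libraries 8, 9 and 10 (open symbols), with the overall share as a dashed line. Short black bars give the share with all 3 scores above 0 when sensory receptor genes are left out: they drop far below the symbols on chromosomes 2, 7, 9 and 19, and hardly on X.

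Each autosome held genes far above and far below 0. With 1 region counted per protein-coding gene, the highest on chromosome 11 was Olfr1383 with scores of 2.17, 2.58 and 2.53, and the lowest Casc3, part of the exon junction complex, with -3.15, -3.11 and -3.31. On X they were Samt4 with 2.61, 2.45 and 2.31 and the synaptic adhesion gene Nlgn3 with -2.32, -2.22 and -2.27. The lowest X gene was thus less far from 0 than the lowest on any autosome, where, counted in the same way, the lowest mean score lay between -3.41 (Hist1h4f, chromosome 13) and -3.03 (Rev3l, chromosome 10). The median score was -0.10 on X and -2.03 on chromosome 11. On Y, Usp9y, a deubiquitinase gene, had a mean score of 1.1 ± 0.09 (SD, n = 3), while the wider region of its neighbour Ddx3y, an RNA helicase gene, scored -0.29, -0.34 and -0.18. Over all 27 Y regions the means ran from -1.23 (a region of Mid1) to that of Usp9y, a narrower range than on the other chromosomes described here.

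Position along the chromosome also went with the class. Mouse chromosomes carry the centromere at the end from which coordinates count. With each autosome divided into 5 parts of equal length, 31.3% of the regions in the part nearest to that end were lamina-associated, and 26.8%, 28.6%, 24.1% and 18.3% in the following parts. On X the shares in the same order were 32.3%, 44.8%, 32.3%, 52.9% and 59.7%, so that the highest lay at the far end. The shares by position include the clustered sensory receptors and were not computed without them. Of 460 windows of 5 Mb with at least 10 regions, 4 held lamina-associated regions alone, 55 held none and 166 had between 25% and 75%. The 4 full windows were on chromosome 5 at 15 to 20 Mb, chromosome 10 at 100 to 105 and 130 to 135 Mb, and X at 145 to 150 Mb.

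Both the narrowest and the widest regions were often lamina-associated. The lamina-associated share was 2107 of 4680 regions (45.0%) under 15 kb, 16.4% of those from 15 to 25 kb, 17.1% from 25 to 50 kb, 21.6% from 50 to 100 kb, 30.4% from 100 to 200 kb, 46.9% from 200 to 500 kb and 65.9% of 182 regions of 500 kb and over. With the flanks included, a region under 15 kb holds a gene of under 3 kb.

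The narrow end was a mixture of very different gene kinds. Of 1299 narrow sensory receptor regions 1250 were lamina-associated (96.2%, median 2.08), while of 64 histone regions 0 were (median -2.38). Between these were microRNA genes with 265 of 1018 (26.0%), tRNA genes with 79 of 428 (18.5%) and small nucleolar RNA genes with 16 of 104 (15.4%). Other protein-coding regions had 388 of 1531 (25.3%). When sensory receptors were left out and protein-coding genes were counted once, the narrow class had 24.2%, the next 14.5%, and the share then rose with width to 65.9% of 176 genes of 500 kb and over. In libraries 8, 9 and 10 together, 66.5 ± 0.568% of those wide genes had a score above 0.

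**Figure D3:**
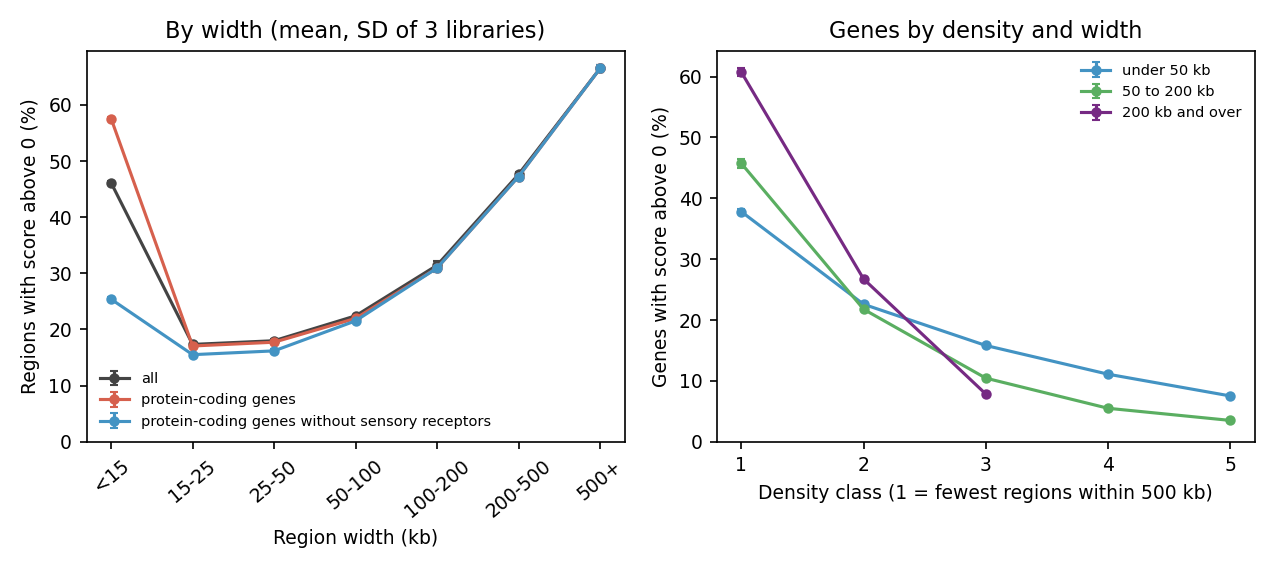
Left, share of regions with a score above 0 (y axis, percent) by region width (x axis, kb) for all regions, protein-coding genes, and protein-coding genes without sensory receptors. Right, the same share for genes without sensory receptors by density class (x axis) and width, leaving out classes under 20 genes; points are means and bars SD of 3 libraries, mostly smaller than the points. The high share of narrow regions shrinks without sensory receptors, the rise with width stays, and in the right panel all 3 widths fall from class 1 to class 3.

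Among protein-coding genes, the widest lamina-associated regions were wider than any non-associated one. The 8 widest of the lamina-associated class ran from 1624 kb (Fhit) to 3021 kb (Ssty1), and the 8 widest of the non-associated class from 929 kb (Nckap5) to 1235 kb (Park2). Ptprd, a receptor phosphatase gene of synapses, scored 1.64, 1.67 and 1.66, the dystrophin gene Dmd 1.34, 1.29 and 1.30, and Cntnap2, of the neurexin superfamily, 1.81, 1.82 and 1.81. Lrp1b had a mean of 1.68, Macrod2 1.95, Fhit 0.86 and Csmd1 0.56, and Ssty1, a Y gene whose region spans several Mb of repeated copies, 0.54. Among the widest non-associated regions the adhesion genes Opcml and Ntm, neighbours on chromosome 9, scored -1.87, -1.87 and -1.80, and -1.90, -1.98 and -1.99. Park2 had a mean of -0.98, Cdh13 -1.0, Nckap5 -0.75, Anks1b -0.54 and Ptprt -0.20.

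Scores far above and far below 0 stood in every width class, as the extremes show when 1 region is counted per protein-coding gene. The highest score fell as width grew, from 3.30 under 15 kb to 2.47 at 500 kb and over. The widest class also holds far fewer regions. At 500 kb and over, Skint5 had a mean score of 2.47 ± 0.04 (SD, n = 3), and Npas3, a neural transcription factor gene, scored -2.89, -2.98 and -2.86. From 200 to 500 kb the lowest was Nf1, which encodes the Ras regulator neurofibromin, at -2.89 ± 0.14. From 100 to 200 kb the highest was the endothelial receptor gene Adgrl4 at 2.61. From 50 to 100 kb the highest and lowest were Skint10 at 2.65 and Ubap2l at -3.20, and from 25 to 50 kb Pydc3 at 2.89 and Fyttd1 at -3.32. From 15 to 25 kb they were Prb1, a salivary proline-rich protein gene, at 3.15 and the respiratory chain gene Sdhd at -3.24. Under 15 kb they were, among protein-coding genes counted once, Olfr802, with 3.32, 3.29 and 3.28, and Hist1h4f, with -3.69, -3.35 and -3.19.

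With sensory receptors left out, the share was lower where genes stood close together. Density was the number of other regions with a midpoint within 500 kb, in 5 equal classes over all placed regions. Among genes other than sensory receptors, 43.6% of 3817 were lamina-associated in the class with the fewest neighbours (0 to 7), then 21.2%, 13.7%, 9.64%, and 6.85% of 2919 in the class with the most (33 to 111). Genes of 200 kb and over followed the same order where they were numerous, with 60.0% of 690 in the first class, 26.3% of 167 in the second and 7.84% of 51 in the third, and only 13 and 3 such genes lay in the last 2. Across these 17609 genes the score correlated with density at a Pearson r of -0.35 (Spearman rho -0.43) and with the logarithm of width at 0.20 (rho 0.14). Neighbouring genes are not independent, so no p is given. Sensory receptors did not follow this order: in the densest class 662 of 681 were lamina-associated. Over all regions the shares from the sparsest to the densest class were 44.6%, 23.9%, 17.5%, 19.9% and 24.5%, a fall followed by a rise.

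Promoter sequence differed between the classes. Promoters on the GRCm38.p6 build could be matched to 15153 genes. In the 250 bases upstream of the start, the median GC content was 44.4% for lamina-associated and 59.2% for non-associated genes, and the median number of CpG was 2 against 15. Without sensory receptors the medians were 49.6% against 59.6% GC, and 4 against 15 CpG. At least 1 CG was present in 92.1% of all promoter windows of this length in the reference table. The Dam target GATC, which reads the same on both strands, was present in 41.3% of lamina-associated and 39.1% of non-associated promoters, against 41.9% of all windows.

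With sensory receptors left out, 51.1% of 1864 genes with 0 to 2 CpG were lamina-associated, 29.9% with 3 to 5, 19.1% with 6 to 9, 11.2% with 10 to 19 and 8.86% of 3881 genes with 20 or more. In regions under 50 kb the range was from 50.5% to 3.20%. In regions of 200 kb and over it was from 66.7% of 63 genes to 36.4% of 250. With 6 to 9 CpG, the class of Grm7, it was 62.9% of 97 genes in the wide regions and 12.4% of 1302 in those under 50 kb.

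**Figure D4:**
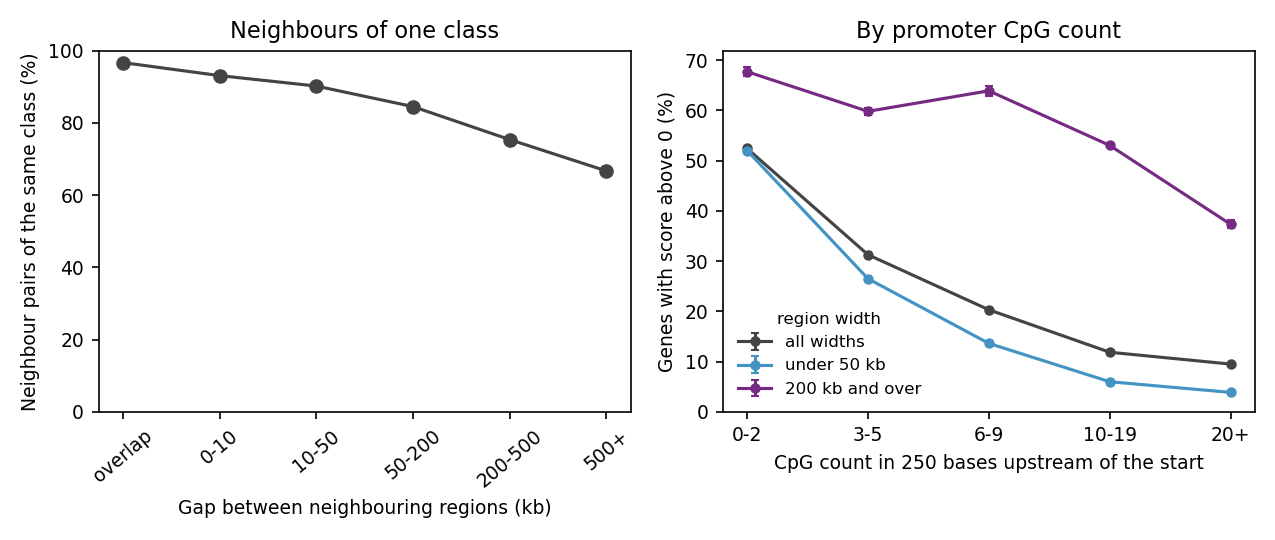
Left, share of neighbouring region pairs in the same class (y axis, percent) by the gap between them (x axis, kb). Right, share of genes without sensory receptors with a score above 0 (y axis, percent) by the number of CpG in the 250 bases upstream of the start (x axis), for all widths, under 50 kb, and 200 kb and over; points are means and bars SD of 3 libraries. Agreement drops from 96.7% to 66.7% with the gap, and the share above 0 is lowest at 20 or more CpG for each width.

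Neighbouring regions mostly shared a class, more so the closer they lay. With 72.1% of all regions non-associated, many pairs would share a class wherever they lay, and no expected agreement was computed. Of overlapping pairs in which both had a class 96.7% agreed, of pairs with a gap of up to 10 kb 93.1%, from 10 to 50 kb 90.2%, from 50 to 200 kb 84.5%, from 200 to 500 kb 75.4% and of 500 kb and over 66.7%. The median absolute difference between neighbours grew over the same steps from 0.232 to 0.965 score units. Lamina-associated regions formed 1075 runs, of which 397 were single regions and 131 of 10 or more regions held 55.5% of the lamina-associated regions. Non-associated regions formed 1082 runs, and 287 of 10 or more held 86.4%.

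By span, the longest lamina-associated runs were not the olfactory clusters but gene-poor stretches. The longest was on Y from 1296961 to 83929911 (82.6 Mb) with only 15 regions. Spans include the gaps between regions, which hold no score, and all regions on Y together cover only 4.15 Mb. On X a run from 111100418 to 133867578 (22.8 Mb) held 29 regions, from Cylc1 to Tnmd, and another from 77835898 to 92609572 (14.8 Mb) held 24, with Dmd the widest. On chromosome 16 a run of 12.2 Mb from Htr1f to Usp25 held 18 regions with a median score of 1.91, and on chromosome 15 one of 10.4 Mb from Cdh6 to Cdh18 held 7 with a median of 2.07. The longest non-associated run was on chromosome 4, 20.6 Mb with 358 regions. On chromosome 12, by contrast, a non-associated run of 16.0 Mb that holds the neural transcription factor gene Myt1l held only 47 regions, at a median of -2.18. Non-associated stretches of low gene density were thus present too.

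Isolated regions had the class opposite to that of all 4 nearest regions, 2 on each side. There were 142 isolated lamina-associated and 105 isolated non-associated regions, of which 131 and 100 were protein-coding. Most were weak, with a median score of 0.44 and -0.54. The strongest were Sirpb1b with scores of 2.36, 2.43 and 2.36, Zfp804a with 2.31, 2.21 and 2.19, the heparan sulfate enzyme gene Hs3st4 with a mean of 1.92, the insulin gene Ins1 with 1.74 and the adenylyl cyclase gene Adcy2 with 1.68. Zfp804a stood 1382 kb from Nup35 at -1.03 and 1373 kb from Zc3h15 at -1.55, while Adcy2 stood 23.8 kb from Fastkd3 at -1.14.

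The strongest isolated non-associated genes had lamina-associated neighbours by the rule that defined them. Fat1, an atypical cadherin gene, scored -2.03, -1.89 and -1.94 and stood 4.95 kb from Mtnr1a at 0.23. Gabarapl1, an autophagy gene, scored -1.42, -1.59 and -1.48 between Tmem52b at 0.35 and the killer cell lectin receptor gene Klre1 at 0.97. Jun, an immediate early transcription factor gene, scored -1.64, -1.32 and -1.28, Tnfaip8 had a mean of -1.38 and Mb21d2 of -1.36.

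Small genes inside long ones mostly had the class of their host, and a few did not. Of 283 regions that lay within a lamina-associated one 249 were lamina-associated (88.0%) and 23 non-associated. Of 1306 within a non-associated one 1293 were non-associated (99.0%) and 6 lamina-associated. The 5 pairs that follow are among those with the largest difference in score and were picked for it. Lrrtm1, a synaptic adhesion gene, scored -1.03, -0.91 and -1.36 inside Ctnna2, an alpha-catenin gene, with 0.90, 0.90 and 0.87. Its relative Lrrtm3 scored -0.56, -0.59 and -0.53 inside Ctnna3 with 1.42, 1.42 and 1.43. Trim32, a ubiquitin ligase gene, had a mean of -1.10 inside Astn2 with 0.79, and Cstf2t, a polyadenylation factor gene, -1.48 inside Prkg1 with 0.28. In the other direction Mir708 scored 1.39 inside Tenm4 with -0.40. The host's value includes the bases of the gene inside it.

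Gene families were collected by symbol pattern, 1 region per symbol. Lamina-associated shares are to be read against 26.1% of all regions, and non-associated ones against 72.1%. Families made of tandem copies have similar sequences, and none of the sources used here states how reads were placed between copies. Values of single members of such families are therefore uncertain. Neighbours within a cluster also share their surroundings and are not independent.

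Receptors for odours and other outside chemicals were mostly lamina-associated, with family medians from 1.03 (trace amine receptors) to 2.47 (bitter taste receptors). Olfactory receptors were lamina-associated in 1047 of 1094 cases (median 2.13), with 282 of 282 on chromosome 2, 62 of 62 on chromosome 19, 126 of 127 on chromosome 9 and 230 of 236 on chromosome 7. On chromosome 15 only 3 of 8 were, with a median of 0.09, on chromosome 1 20 of 27 and on chromosome 4 18 of 24. Olfr71 on chromosome 4 scored -2.25, -2.35 and -2.66 and Olfr225 on chromosome 11 -2.41, -2.39 and -2.24, so both were below the median of the non-associated class. Type 1 vomeronasal receptors had 192 of 195, and type 2 had 120 of 121. Of the 4 exceptions, Vmn1r1 scored -0.94, -1.05 and -0.90, and the others lie on unplaced contigs. There Vmn1r62 and Vmn1r187 are among 13 regions that share 1 identical set of scores (-0.10, -0.14 and -0.10). The region of Vmn2r122, with a mean of -0.08, runs past the start of its contig. Its mean was 0.683 of the mean of that shared set, and the same fraction of the region, 0.683, lies on the contig. It may therefore not be a separate measurement. All 35 bitter taste receptors were lamina-associated, from Tas2r119 at 0.48 to Tas2r102 at 3.19, and so were all 15 trace amine and all 6 formyl peptide receptors. Mas-related receptors, which include itch receptors, had 14 of 19.

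Immune gene families were split. Natural killer lectin receptors had 18 of 20 lamina-associated, led by Klra7 with 2.91, 2.88 and 2.81, and Klrg2, on the same chromosome 6 but far from the cluster, scored -2.21, -2.19 and -2.15. Other C-type lectins had 25 of 32, Ms4a membrane proteins 15 of 17 and alpha-defensins 10 of 10. Beta-defensins had 25 of 41, from Defb18 at 3.0 to Defb43 at -1.79. Type I interferons had 9 of 18, CXC chemokines 6 of 12, interleukins 10 of 33, toll-like receptors 4 of 12 and CC chemokines 5 of 21. The median score of the last was -1.30, and their highest member Ccl20 was at 1.01. The immunoglobulin and T-cell receptor V segments had 49 of 53.

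Several families of skin, reproduction and secretion had high scores as well, and others did not. All 34 epidermal differentiation genes (Sprr and Lce, proteins of the cornified skin layer) were lamina-associated with a median of 2.18, and so were 9 of 9 desmosomal cadherins, 25 of 25 prolactin family genes, 5 of 5 caseins and 10 of 10 major urinary proteins. The milk protein gene Csn2 scored 2.65, 2.59 and 2.71. Keratin-associated proteins had 44 of 53, with 21 of 21 on chromosome 11 and 22 of 23 on chromosome 16, but 0 of 5 on chromosome 7. Keratins had 17 of 49, with 16 of 27 in the cluster on chromosome 11 and 1 of 22 in that on chromosome 15. The highest was Krt36 with 1.00, 0.55 and 0.60 and the lowest Krt8, of simple epithelia, with -1.57, -1.37 and -1.59. Lipocalins, small secreted carriers, had 0 of 10, with Lcn12 the lowest at -2.25. Tissue kallikreins were evenly split, with 11 of 26 lamina-associated and 11 non-associated, and ADAM proteases had 17 of 33 lamina-associated.

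Protease inhibitors and enzymes that handle foreign compounds were mostly lamina-associated, with exceptions by cluster. Serpins had 48 of 59, among them all 15 on chromosome 13, and Serpine2, which encodes protease nexin-1, scored -2.56, -2.56 and -2.53. Carboxylesterases had 18 of 19, UDP-glucuronosyltransferases 12 of 13, sulfotransferases 14 of 19 and organic anion carriers 10 of 14. Cytochrome P450 genes had 56 of 98, with 17 of 18 on chromosome 4 and 0 of 11 on chromosome 17. Cyp3a11 scored 2.54, 2.53 and 2.61, and Cyp1a2 -2.60, -2.70 and -2.60. Glutathione transferases went the other way with 2 of 21, and a median of -2.08.

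**Figure D5:**
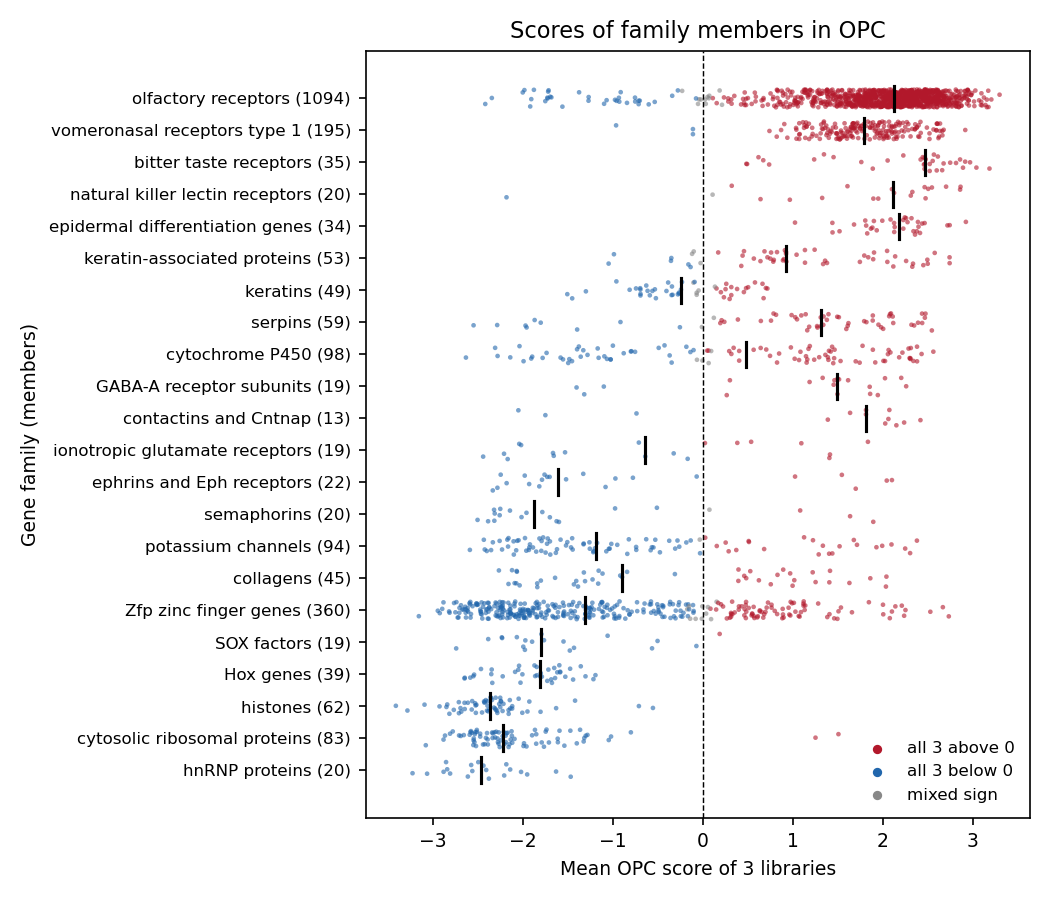
Mean OPC score of 3 libraries (x axis) for each member of 22 gene families (y axis, number of members in parentheses), coloured by class, with the family median as a black bar and a dashed line at 0. Sensory receptor families lie almost wholly above 0 and histone, Hox and hnRNP genes wholly below, while cytochrome P450, keratin, potassium channel and collagen genes spread over both sides.

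Genes of neurons gave divided families. Of 19 GABA-A receptor subunits 16 were lamina-associated, and the 3 exceptions, Gabrd, Gabrr1 and Gabrr2, all lie on chromosome 4 and scored -1.40, -1.32 and -1.10. Contactins and their relatives had 10 of 13: Cntnap5c scored 2.41, 2.42 and 2.42, whereas Cntn2, Cntnap1 and Cntn1 had means of -2.05, -1.75 and -0.74. Metabotropic glutamate receptors had 4 of 8, from Grm7 with 2.07, 2.08 and 2.07 to Grm4 with -1.76, -1.86 and -1.82. Ionotropic ones had 7 of 19, from Grik2 at 1.83 to Grik4 at -2.44, although both encode kainate receptor subunits in regions of over 200 kb. Serotonin receptors had 9 of 14, sodium channels 5 of 14, potassium channels 23 of 94, nicotinic subunits 3 of 16 and calcium channel subunits 3 of 26. Kcnt2 at 2.38 and Kcnd3 at -2.59 marked the ends of the potassium channels.

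Adhesion and guidance families divided by subgroup. Clustered protocadherins had 21 of 22 lamina-associated, with Pcdhac2, at -0.53, -0.57 and -0.56, the exception, and non-clustered ones 6 of 12. Classical and related cadherins had 12 of 23. Ephrins and Eph receptors had 5 of 22, and these were Epha6, Epha3, Epha5, Epha7 and the ligand gene Efna5. Epha6 scored 2.09, 2.12 and 2.10, and on the same chromosome Ephb3 scored -2.35, -2.44 and -2.21. The 3 lamina-associated semaphorins of 20 were all of the secreted class 3 and lie on chromosome 5: Sema3c at 1.89, Sema3e at 1.64 and Sema3d at 1.08. Collagens had 20 of 45, matrix metalloproteases 11 of 23, ADAMTS proteases 8 of 19 and laminins 2 of 11, with Lama2 at 2.03.

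Several families of developmental transcription factors had few or no lamina-associated members, while T-box, POU and Zfp factors were nearer to the share of all regions. Hox genes had 0 of 39 lamina-associated, from Hoxb2 at -1.19 to Hoxa5 at -2.65, and Pax factors 0 of 9, Iroquois factors 0 of 6 and NK homeobox factors 0 of 15, 1 of them mixed. SOX factors had 1 of 19, the endodermal and endothelial factor gene Sox17 with 0.24, 0.26 and 0.06, which did not pass the test (limma adjusted p = 0.0657). Forkhead factors had 2 of 44, one of them the neuronal Foxp2 with 1.98, 2.02 and 2.06. POU factors had 3 of 15, with the pituitary gene Pou1f1 at 2.22, and T-box factors 4 of 14. Wnt ligands had 1 of 19 (Wnt2, 0.81) and Frizzled receptors 0 of 10, but fibroblast growth factors 8 of 22, from Fgf10 at 2.45 to Fgf1 at -2.40, and bone morphogenetic proteins 5 of 11. Zfp zinc finger genes had 82 of 360 with strong differences by chromosome: 24 of 36 on chromosome 13 and 20 of 43 on chromosome 17, but 6 of 88 on chromosome 7 and 0 of 17 on chromosome 6.

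Families of genes that most cells use had lamina-associated shares below that of all regions. Histones had 0 of 62 lamina-associated, ATP synthase subunits 0 of 16, hnRNP proteins 0 of 20, SR splicing factors 0 of 11 and chaperonin subunits 0 of 9. Cytosolic ribosomal proteins had 2 of 83 (median -2.23), mitochondrial ones 2 of 77, translation initiation factors 1 of 55, complex I subunits and assembly factors 2 of 45, cytochrome oxidase subunits 2 of 26, proteasome subunits 2 of 40, RNA polymerase subunits 1 of 28 and Mediator subunits 2 of 30. The shares were higher for ubiquitin-conjugating enzymes with 5 of 36, kinesins with 5 of 38 and Rab GTPases with 7 of 68. The histone nearest to 0 was Hist1h2ba, a testis variant, with -0.84, -0.40 and -0.43.

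Several exceptions in these families are second copies of a broadly used gene, set here beside that gene; the pairs were chosen after the values were seen. Rpl10l, a ribosomal protein gene of the testis, scored 1.44, 1.53 and 1.55, and Rpl10 -1.82, -1.97 and -1.91. Rpl39l had a mean score of 1.25 ± 0.14 (SD, n = 3) and Rpl39 of -1.87 ± 0.20. Cox7b2, a testis form of a cytochrome oxidase subunit, scored 1.77, 1.85 and 1.85, and Cox7b -1.56, -1.69 and -1.71. The proteasome subunit gene Psma8, known from meiosis, had a mean of 0.96 and Psma7 of -2.30. The RNA polymerase III subunit gene Polr3g had a mean of 1.41 and its partner Polr3gl of -2.07. Each of these 5 pairs sets a lamina-associated region beside a non-associated one, so their scores cannot overlap by the class rule. Cct6b, the testis form of a chaperonin subunit, was not lamina-associated, with -1.22, -1.29 and -1.41. Other exceptions, such as Mrpl1 at 0.96, Ndufaf5 at 1.15, Ndufs4 at 0.41, Cox7c at 0.65, Psmd14 at 0.65 and Eif3e at 0.77, are broadly used genes.

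RNA genes without a protein product differed by kind. MicroRNA genes had 241 of 1000 lamina-associated, with 41 of 77 on X and 42 of 77 on chromosome 12, against 5 of 80 on chromosome 11. A cluster of 58 regions on chromosome 2, Mir466m to Mir669h (chr2:10456663-10520279), was lamina-associated throughout (median 1.54), and so was one of 19 regions on X, Mir743 to Mir465 (median 1.74). On chromosome 12, 33 of 33 regions from Mir882 to Mir3072 (chr12:109672197-109749960) were lamina-associated with a median of 1.15. The cluster just before it, from Mir673 to Mir370, had 3 of 15 and medians of 0.31, -0.26 and -0.24 in libraries 8, 9 and 10, so that 8 of its 15 regions had mixed signs. Many regions within such a cluster overlap, so they are not independent measurements.

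Small nucleolar RNA genes, which guide modification of ribosomal RNA, had 4 of 89 lamina-associated when collected by symbol pattern. They ran from Snora35 on X with 1.88, 2.22 and 2.20 to Snora30 with -3.39, -3.76 and -3.50. Among all regions annotated as this kind it was 16 of 104 (15.4%), so the share depends on which regions are counted. Regions of tRNA genes had 79 of 428. The large groups on chromosome 13 had 1 of 105 and on chromosome 11 3 of 48, whereas X had 18 of 20. On chromosome 6, where the 53 regions are mostly tRNA Cys genes, 17 were lamina-associated, 15 non-associated and 21 mixed, with a median of 0.01, so this group lay at the boundary between the classes.

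Genes of the oligodendrocyte lineage were non-associated with 1 exception among those followed throughout. Of all regions 72.1% were non-associated, so this class does not set the lineage genes or the lamina genes below apart. Pdgfra, the growth factor receptor that marks OPC, scored -2.14, -2.17 and -2.13, the proteoglycan gene Cspg4 -2.26, -2.28 and -2.31, and Ptprz1 -2.85, -2.99 and -2.85. The transcription factor genes Olig1, Olig2, Sox10, Nkx2-2 and Myt1 had means of -2.13, -1.65, -2.07, -1.49 and -1.22, with Olig2 ranging from -1.39 to -1.90. St18, a zinc finger gene of the Myt1 family, scored 1.86, 1.87 and 1.91. The myelin genes Mbp and Mog, which serve the next stage of the lineage, had means of -1.51 and -1.03. The lamina genes themselves were non-associated: Lmnb1 at -2.21, Lmna at -2.39 and the lamin B receptor gene Lbr at -1.85.

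Against the OL map, the OPC map had the same share of regions above 0 within the spread, 27.0 ± 0.266% against 27.4 ± 0.755% (exact permutation test, two-sided, p = 0.7). Of the OPC lamina-associated regions 5332 (95.0%) were lamina-associated in OL too, which is 94.3% of those in OL, where 26.3% of all regions had that class. On X the share was 47.3 ± 0.314% in OPC and 50.9 ± 0.598% in OL, and the 2 groups of 3 libraries did not overlap. The p was 0.1, the smallest that 3 against 3 allows, and the 2 conditions were scored against different Dam libraries, whose part in the difference was not tested. Sensory receptors, at 96.6% in OPC and 96.4% in OL (p = 0.4, exact permutation test), and regions of 500 kb and over, at 66.5% and 67.4% (p = 0.5, exact permutation test), showed no difference that passed the test either.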

How the data were processed

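Lamin B1 DamID-seq was analysed in 3 OPC libraries, with 3 OL libraries for comparison. Reads were trimmed with cutadapt 1.9.1 and aligned with BWA 0.7.17 to mm10, per the submitters' processing notes. The scores were deposited as 1 value per region and Dam-LMNB1 library against pooled Dam libraries, per the file headers, and neither the log base, nor the depth, nor the steps from reads to scores were given in the sources used here. The p-values that the authors deposited for their OL against OPC comparison were not used.

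Deposited starts fitted gene models when counted from 0, and 1 was added. Of the 21534 regions, 20987 were matched by name to RefSeq (GRCm38.p6), 507 of them by a synonym, 16 lay on unplaced contigs and 1 on the mitochondrial genome. The score mean of each condition was fitted with limma 3.58.1 (R 4.3.3, variance trend, 9.42 degrees of freedom) over the 6 scored libraries, two-sided against 0, with Benjamini-Hochberg adjustment over all regions at 0.05. The procedure was tested on simulated data. Shares were computed per library and given as mean ± SD, and OPC and OL shares were compared with an exact permutation test (Python 3.11.15, scipy 1.17.1, pandas 2.3.3, numpy 2.4.6, matplotlib 3.10.9).

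Genes were named by a rule: the highest and lowest member of each of 92 families, members against their family, the extremes of each width class and chromosome, the 8 widest regions of each class, the 5 with the largest SD, 5 isolated regions of each class, and 15 lineage and lamina genes. Some genes that the rule names are not reported here. The nested genes, gene pairs, lineage microRNAs and further family members were named after their values were seen. The members and lists were chosen with earlier results of these data known. Alternatives varied the libraries, scaling, variance trend, regions counted, overlap, threshold, width classes and weight.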

Additional observations from a re-analysis of the deposited data

Results flagged for a closer look

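A signal stood outside the nuclear map in the single region on the mitochondrial genome, which is not inside the nucleus and enters no comparison by chromosome. Its OPC scores were 2.18, 2.06 and 1.91, a mean of 2.05 ± 0.134 (SD, n = 3), which is near the median of the sensory receptors. In OL its scores were 1.77, 2.05 and 2.41, a mean of 2.08 ± 0.325, and the scores of the 2 conditions overlapped. The region is counted among the 5610 lamina-associated ones, since the rule takes every row.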

How the results depend on the processing

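The numbers of regions above and below 0 by limma, and the numbers of runs, stayed within 1.5 times under every alternative run. The share of all regions above 0 (27.0%) was 26.7% with 1 region per protein-coding gene, 32.3% in regions that do not overlap, 21.8% with a threshold of 0.5 and 21.7% in regions of 15 kb or wider. In the last 3 of these settings, in the same order, the lamina-associated class (26.1%) was 31.3%, 21.0% and 20.8%, the non-associated (72.1%) 66.6%, 66.0% and 77.4%, and the mixed (1.89%) 2.15%, 12.9% and 1.82%. With 1 region per gene the non-associated class was 72.4% and the mixed 1.78%. Leaving out 1 library gave 26.2% to 26.4% lamina-associated, 72.3% to 72.6% non-associated and 1.23% to 1.30% mixed.

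The share above 0 on chromosome 11 (12.5%) was 13.3% per gene, 15.5% without overlap, 9.16% with the threshold of 0.5 and 18.9% by covered bases. On X (47.3%) the same 4 gave 45.4%, 51.7%, 35.9% and 63.0%, so X remained above chromosome 11 in each. At 500 kb and over (66.5%) it was 68.8% without overlap, 57.0% with the threshold and 40.7% in the top decile of width, which starts at narrower regions. Under 15 kb (46.1%) it was 57.5% per gene, 59.9% without overlap, 42.6% with the threshold and 38.1% in the lowest decile. In the sparsest density class (46.1%) it was 48.5% without overlap and 35.0% with the threshold, and in the densest (25.2%) 24.2% per gene, 32.7% and 22.5%. Of 368 alternatives for the lamina-associated shares of the 92 families, 66 moved the share beyond the SD between libraries of the share above 0. For the 27 shares above 0 of the remaining chromosomes, width classes and density classes, 89 of 181 alternatives moved the share by at least its SD.

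Of 2408 alternatives for 344 named scores, 2375 kept direction and call, 26 were no longer past the threshold, 3 newly passed and 4 changed sign. The 4 were in Psg17, which ranged from -0.10 to 0.033 and was 0.0060 without library 8, Ugt1a1 (-0.14 to 0.051) and Nkx2-9 (-0.16 to 0.072), with 1 library left out, and none of these 3 genes passed the test with all libraries. Mir3473c did not pass without library 9 or 10, nor Vmn1r62 and Vmn1r187 without any 1 library. The cause was not tested. No paired analysis was possible because the groups share no replicate numbers. The depth behind a score is unknown, all OPC scores share their Dam denominator, and widths include flanks.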
